A study of Homo sapiens with 4 samples.

Results

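Transcripts of 10 genes of the epithelial-to-mesenchymal transition (EMT) were followed in parental SUM159 cells and in NOS2KO clones made from them. The genes were chosen by name and matched by Ensembl identifier to GENCODE release 29, and all 10 were among the 57500 genes counted. They are the transcription factors SNAI1, SNAI2, SNAI3, ZEB1, ZEB2, TWIST1, TWIST2 and PRRX1 and the mesenchymal products VIM and FN1. SUM159 is a triple-negative breast cancer cell line that serves as a model of metaplastic breast cancer (MpBC), and all samples were grown in DMEM with serum. The parental control was 1 library. The NOS2KO group was 3 libraries, 1 each from clones 1, 5 and 6, which had been transfected with a NOS2 double nickase plasmid, selected with puromycin and picked by iNOS immunoblot and a nitrite/nitrate assay. Whether the parental cells had a mock transfection or puromycin is not stated, so the edit, the selection and growth as a clone cannot be told apart.

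EMT is the change by which epithelial cells lose their junctions and gain a migratory, spindle-like state. SNAI, ZEB and TWIST proteins bind E-box sequences and repress epithelial genes such as CDH1, which encodes E-cadherin, and PRRX1 is a homeobox factor of mesenchymal cells. VIM encodes vimentin, the main intermediate filament of mesenchymal cells, and FN1 encodes fibronectin, a matrix protein that integrins bind. Metaplastic breast cancers are known for mesenchymal features, and NOS2 encodes the inducible nitric oxide synthase, iNOS.

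The promoters of FN1 and ZEB1 are shown because they hold letters that EMT factors or the CREB family are known to bind. That of VIM is shown because VIM was the most abundant of the 10 transcripts per kb of exon. Each run holds the 250 bases before a start given by RefSeq (GRCh38.p14), 5′ to 3′ on the gene's strand. Capitals mark the E-box CAGGTG, read on both strands and so also found as its reverse complement CACCTG, and the cyclic AMP response element TGACGTCA.
FN1, chr2:215436069-215436318, minus strand: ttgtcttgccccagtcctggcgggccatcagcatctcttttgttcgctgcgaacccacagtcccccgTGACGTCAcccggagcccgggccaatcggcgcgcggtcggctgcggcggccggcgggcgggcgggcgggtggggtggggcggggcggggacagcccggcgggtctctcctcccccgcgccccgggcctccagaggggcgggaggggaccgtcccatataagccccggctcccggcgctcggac
ZEB1, chr10:31318966-31319215, plus strand: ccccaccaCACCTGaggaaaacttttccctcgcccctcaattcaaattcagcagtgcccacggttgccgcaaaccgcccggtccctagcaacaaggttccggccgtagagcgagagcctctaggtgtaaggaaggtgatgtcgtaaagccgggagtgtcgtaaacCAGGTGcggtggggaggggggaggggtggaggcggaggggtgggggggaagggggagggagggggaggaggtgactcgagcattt
VIM, chr10:17227991-17228240, plus strand: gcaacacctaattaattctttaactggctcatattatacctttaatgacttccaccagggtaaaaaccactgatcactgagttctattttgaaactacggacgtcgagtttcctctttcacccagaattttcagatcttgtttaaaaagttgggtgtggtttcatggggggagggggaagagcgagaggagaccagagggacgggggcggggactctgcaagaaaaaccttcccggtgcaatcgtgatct
The FN1 run held the response element from base -183 to base -176, counted from the transcript start, and 1.65% of 35116 such runs of all genes held one. The ZEB1 run held 2 E-box matches, and 17.5% of all runs held at least 1. RefSeq gave 7 starts for ZEB1, and E-box matches lay before 2 of them. The AP-1 motif TGANTCA, found in 6.57% of all runs, was searched on both strands too. The runs of VIM, ZEB2, TWIST2 and PRRX1 held none of the 3 motifs. A match describes the letters and shows no binding.

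The libraries held 90467395 to 122171287 counts on genes. Values are counts per 1000000 counts (CPM) after TMM scaling, and 3 counts, taken as the floor, were 0.0246 to 0.0332 CPM. Where 3 values are given for the clones, they stand for clone 1, the library labelled clone 5 and clone 6, in this order. NOS2 had 2 counts in parental cells and 3, 18 and 1 counts in the clones. Its mRNA was thus near the floor in parental cells and gives no check of the knockout, and it was highest in a clone, for which the wording "labelled clone 5" is kept. Of the markers of this cell type, CD44 was at 454 CPM in parental cells and 827, 785 and 802 CPM in the clones, while CDH1 had 4 counts and 1, 44 and 8 counts. ESR1 stayed at or under 0.741 CPM and PGR at or under 0.0281 CPM. ERBB2, the receptor HER2, stood at 48.3 CPM in parental cells and 55.6, 106 and 99.1 CPM in the clones, so of the receptors that the labelled triple-negative type is defined by, both hormone receptors were near the floor or low and ERBB2 mRNA was present.

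The clones were compared with parental cells by edgeR's quasi-likelihood test over 22511 genes, with Benjamini-Hochberg adjustment. Log2 fold changes above 0 mean more transcript in the clones. Only the clones gave a spread, since parental cells had 1 library, and the p-values assume that parental cultures would vary as clones do. A looser criterion, taken from the study, was an unadjusted p under 0.05 with a log2 fold change above 1 or below -1. Single clones are given as log2 ratios to parental cells with exact 95% intervals, which cover counting error only.

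All 10 genes passed the filter on low counts. VIM, FN1, SNAI1, SNAI2 and TWIST1 were higher in all 3 clones than in parental cells, and ZEB1 and ZEB2 were lower in all 3. Those 5 and 2 genes compare with 28.6% and 30.5% of all genes tested, and, among genes reaching 10 CPM in any library, as all 7 did, with 27.8% and 37.3%. TWIST1 alone met the criterion, or 10.0% of the 10 genes beside 9.58% of all genes tested, a share near the background. None of the 10 reached an adjusted p under 0.05 with edgeR or with DESeq2's Wald test. Of all genes, 0.00444% did with edgeR, and 6.18% of those given an adjusted p did with DESeq2. An unadjusted p under 0.05 was found for 1 of the 10 genes with edgeR, beside 11.5% of all genes tested, and for 2 with DESeq2 (TWIST1 and VIM), beside 14.3%. The median log2 fold change of the 10 genes was 0.53, against 0.10 for all genes tested, and it was 0.16 without the library labelled clone 5.

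**Figure D1:**
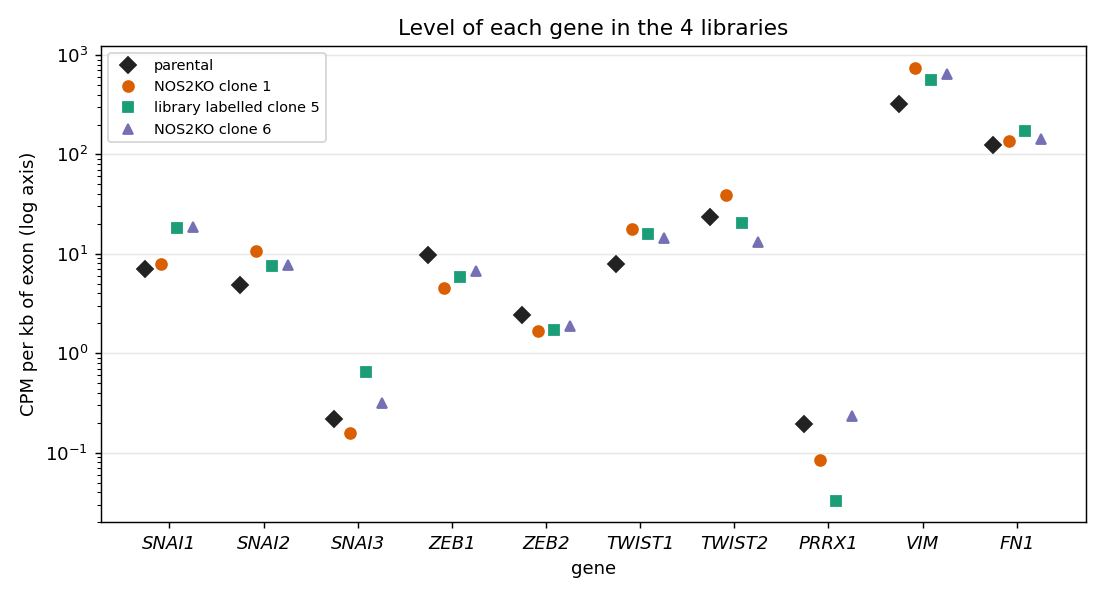
Level of the 10 genes in each library, in CPM per kb of exon on a log axis; each point is 1 library. VIM and FN1 lie above the transcription factors in every library, the clones lie above parental cells for VIM and TWIST1 and below them for ZEB1, and SNAI3 and PRRX1 lie below 1.

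Levels are compared between genes per kb of all annotated exon bases, so the order depends on these lengths. VIM led in every library, at 321 CPM per kb in parental cells and 652 ± 93.6 (SD, n = 3) in the clones, and its rank among the genes tested was 80 in parental cells and 40, 45 and 46 in the clones. FN1 followed at 124 CPM per kb in parental cells and 150.3 ± 20.4 in the clones. In parental cells the factors stood in the order TWIST2 (23.7 CPM per kb), ZEB1 (9.68), TWIST1 (7.91), SNAI1 (6.98), SNAI2 (4.83), ZEB2 (2.44), SNAI3 (0.217) and PRRX1 (0.196), with no spread to separate neighbours. By the mean of the clones the order was TWIST2 (24.1 ± 13.3 CPM per kb), TWIST1 (16.0 ± 1.66), SNAI1 (14.9 ± 6.01), SNAI2 (8.68 ± 1.75), ZEB1 (5.68 ± 1.06), ZEB2 (1.76 ± 0.0996), SNAI3 (0.376 ± 0.255) and PRRX1 (0.117 ± 0.104). Neighbours from TWIST2 to SNAI2 overlapped over the clones, as did SNAI3 and PRRX1, whereas SNAI2, ZEB1, ZEB2 and SNAI3 followed each other without overlap. Per kb, ZEB1 thus stood above TWIST1, SNAI1 and SNAI2 in parental cells and below all of them in each clone. That change of order rests on the exon lengths, 8650 bases for ZEB1 against 2033, 1686 and 2282 for the others. In CPM, ZEB1 was above all of them in every library. Summed over the 8 factors, the level was 56.0 CPM per kb in parental cells and 81.9, 69.8 and 63.2 CPM per kb in the clones.

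VIM (ENSG00000026025, chromosome 10 of GRCh38, 17228259 to 17237593) stood at 1655 CPM in parental cells and 3855, 2889.9 and 3339 CPM in the clones. Every clone was above parental cells, by 1.75 to 2.33 times, with log2 ratios of 1.22 (1.21 to 1.23), 0.80 (0.80 to 0.81) and 1.01 (1.00 to 1.02). Its log2 fold change was 1.02 (standard error 0.38, edgeR adjusted p 0.440), and with an unadjusted p of 0.0537 it lay just outside the criterion. VIM met the criterion with upper quartile scaling, with library size only, with a minimum of 1 CPM and with DESeq2. These are transcript levels, and the libraries hold no protein data. By immunoblot, the study reported lower vimentin and ZEB1 protein and higher E-cadherin protein in NOS2KO clones than in parental SUM159 cells. Exons of the antisense genes VIM-AS1 and AL133415.1 cover 641 and 619 of the 5158 exon bases of VIM. They had at most 227 and 155 counts, against at least 149560 for VIM, and the strand setting of the counting is not given in the sources used here.

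FN1 (ENSG00000115414, chromosome 2, 215360440 to 215436172) stood at 2155 CPM in parental cells and 2352, 3006 and 2447 CPM in the clones. The clones were 1.09 to 1.39 times the parental level, with the library labelled clone 5 the highest. Its log2 fold change was 0.27 (standard error 0.37, edgeR adjusted p 0.798), less than the standard error. Per kb, VIM was 2.58 times FN1 in parental cells and 5.50, 3.23 and 4.58 times in the clones. That ratio, which library scaling does not touch, was higher in each clone than in parental cells.

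**Figure D2:**
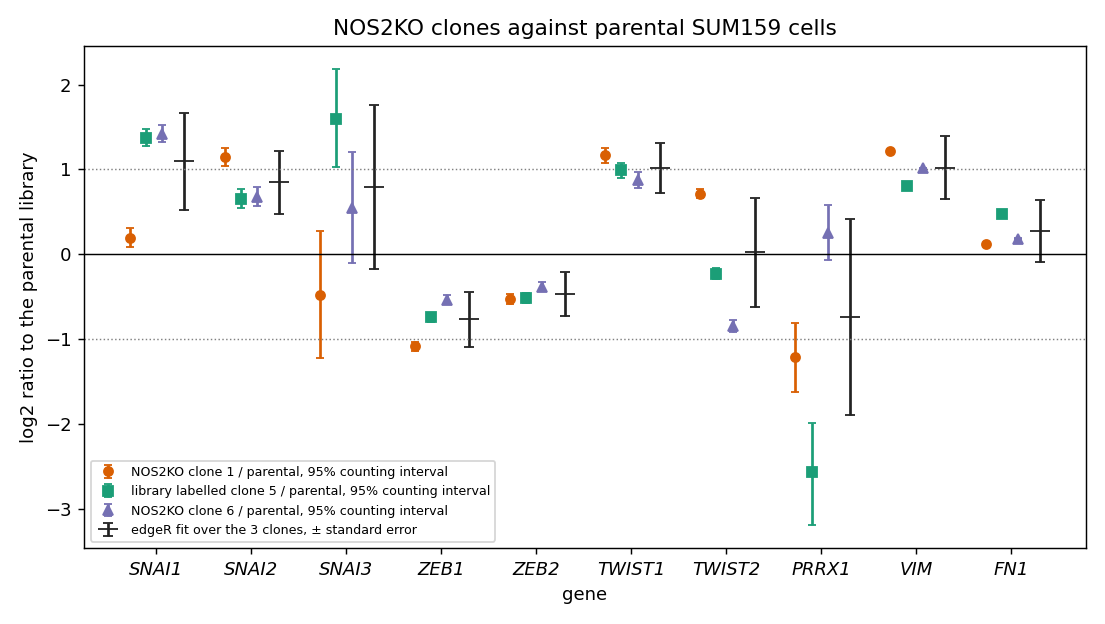
Log2 ratio of each clone to parental cells with exact 95% counting intervals, and the edgeR fit over the 3 clones with its standard error; dotted lines mark 1 and -1. ZEB1 and ZEB2 lie below 0 in all 3 clones, VIM, TWIST1 and SNAI2 lie at 0.66 or above in all 3, and the clones fall on both sides of 0 for TWIST2, SNAI3 and PRRX1.

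The ZEB factors are zinc finger and homeobox repressors that shut off CDH1 and genes of epithelial polarity. ZEB1 (ENSG00000148516, chromosome 10, 31318495 to 31529814), whose promoter run with 2 E-boxes is given above, stood at 83.7 CPM in parental cells and 39.5, 50.05 and 57.8 CPM in the clones. All clones were lower, at 47.2% to 69.1% of the parental level, and none overlapped it. Its log2 fold change was -0.77 (standard error 0.32, edgeR adjusted p 0.448), with an unadjusted p of 0.0584. ZEB2 (ENSG00000169554, chromosome 2, 144384081 to 144524583) stood at 57.7 CPM in parental cells and 40.2, 40.4 and 44.3 CPM in the clones. The clones lay close together below parental cells, with a coefficient of variation of 5.67% against a median of 21.1% over genes reaching 10 CPM. For ZEB2 the log2 fold change was -0.47 (standard error 0.26, edgeR adjusted p 0.534). Per kb, ZEB1 was 3.97 times ZEB2 in parental cells and 2.70, 3.40 and 3.57 times in the clones, lower in each clone. The antisense gene ZEB1-AS1 shares 366 exon bases with ZEB1 and had 6.24 CPM in parental cells and 6.96, 4.72 and 5.12 CPM in the clones, on both sides of the parental level. ZEB2-AS1, which shares 1250 exon bases with ZEB2, had at most 26 counts.

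TWIST1 and TWIST2 are basic helix-loop-helix factors that pair with E proteins. TWIST1 (ENSG00000122691, chromosome 7, 19020991 to 19117672) stood at 16.1 CPM in parental cells and 36.1, 31.9 and 29.5 CPM in the clones. Each clone was above parental cells, by 1.83 to 2.25 times, and the clones differed from each other by at most 1.23 times. Its log2 fold change was 1.02 (standard error 0.29, edgeR adjusted p 0.367), with an unadjusted p of 0.0246. It met the criterion at its edge, and no longer did with any clone left out, when the log2 fold change was 0.93 without clone 1, 1.05 without the library labelled clone 5 and 1.08 without clone 6. The antisense gene AC003986.2, which shares 141 exon bases with TWIST1, had at most 17 counts. TWIST2 (ENSG00000233608, chromosome 2, 238848032 to 238910543) stood at 44.5 CPM in parental cells and 73.1, 38.0 and 24.8 CPM in the clones. Clone 1 was above parental cells and the other clones were below, with log2 ratios of 0.71 (0.66 to 0.77), -0.23 (-0.29 to -0.17) and -0.84 (-0.92 to -0.77). The log2 fold change of TWIST2 was 0.02 (standard error 0.64, edgeR adjusted p 0.991), and -0.50 without clone 1. Among the 8 genes reaching 10 CPM, TWIST2 varied most over the clones, with a coefficient of variation of 55.0%. Per kb, TWIST1 reached its highest level relative to TWIST2 in clone 6, where TWIST2 was 0.913 times TWIST1, against 2.19 times in clone 1 and 1.29 times in the library labelled clone 5. As a ratio, TWIST2 (23.7 CPM per kb) was further above TWIST1 (7.91) in parental cells than in any clone.

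The SNAI proteins are zinc finger repressors, and SNAI1 (Snail) and SNAI2 (Slug) are the members best known in EMT. SNAI1 (ENSG00000124216, chromosome 20, 49982999 to 49988886) stood at 11.8 CPM in parental cells and 13.5, 30.5 and 31.5 CPM in the clones. Clone 1 was 1.14 times the parental level, and the others 2.59 and 2.67 times. Its log2 fold change was 1.09 (standard error 0.57, edgeR adjusted p 0.544). Without clone 1 it was 1.40 (edgeR adjusted p 0.133) and met the criterion. SNAI2 (ENSG00000019549, chromosome 8) stood at 11.02 CPM in parental cells and 24.4, 17.4 and 17.6 CPM in the clones. Here clone 1 was the highest, and the clones were 1.58 to 2.22 times the parental level. For SNAI2 the log2 fold change was 0.85 (standard error 0.37, edgeR adjusted p 0.484). The ratio of SNAI1 to SNAI2 per kb was 1.45 in parental cells and 0.746, 2.37 and 2.42 in the clones, on both sides of the parental value.

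SNAI3 and PRRX1 had few counts. SNAI3 (ENSG00000185669, chromosome 16, 88677682 to 88686493) had 34 counts in parental cells and 31, 121 and 54 counts in the clones. The interval of its log2 ratio included 0 in clone 1 (-1.23 to 0.27) and clone 6 (-0.10 to 1.21) and lay above 0 in the library labelled clone 5 (1.03 to 2.19). The antisense gene SNAI3-AS1 covers 163 of its 1732 exon bases and had 153 counts in parental cells and 355, 593 and 412 counts in the clones, more than SNAI3 in each library, and its part in the SNAI3 counts was not tested. PRRX1 (ENSG00000116132, chromosome 1, 170662728 to 170739419) had 146 counts in parental cells and 80, 29 and 190 counts in the clones. Clone 1 and the library labelled clone 5 were lower, and in clone 6 the interval of the log2 ratio included 0 (-0.06 to 0.58). The log2 fold change was 0.79 (standard error 0.97, edgeR adjusted p 0.783) for SNAI3. For PRRX1 it was -0.74 (standard error 1.16, edgeR adjusted p 0.813).

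Clone by clone, SNAI2, TWIST1 and VIM were over 2 times the parental level in clone 1, and ZEB1 was under 0.5 times. Only SNAI1 passed 2 times in the library labelled clone 5, and SNAI1 and VIM did in clone 6. These are 3, 1 and 2 of the 8 genes reaching 10 CPM, and among all such genes tested 11.6%, 10.6% and 11.1% were over 2 times and 11.7%, 12.6% and 12.3% under 0.5 times. Relative to ZEB1, per kb, TWIST1 was at 0.817 times in parental cells and 3.89, 2.71 and 2.167 times in the clones. SNAI1 was at 0.721 times ZEB1 in parental cells and 1.75, 3.12 and 2.79 times in the clones. Per kb, both lay below ZEB1 in parental cells and above it in each clone. In CPM, both lay below ZEB1 in every library.

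To find genes with like profiles, distances between log2 CPM profiles, centred on their mean over the 4 libraries, were taken to 10703 genes reaching 10 CPM. VIM was nearest to UQCRH (distance 0.0214 in log2 units) and RBX1 (0.0285), FN1 to ARSJ (0.0411) and SERPINH1 (0.0501). ZEB1 was nearest to C8orf76 (0.0377) and CNST (0.0546), and ZEB2 to INTS14 (0.0278) and CXCL16 (0.0340). Closeness of this kind was common, with 38 genes within 0.2 of VIM, 136 of FN1, 67 of ZEB1 and 299 of ZEB2. TWIST1 was nearest to RAB1B (0.0353) and KDELR3 (0.0395), and TWIST2 to AC004943.2 (0.0484) and COTL1 (0.160). SNAI1 was nearest to ARHGEF17 (0.0826) and TNFSF12 (0.0859), and SNAI2 to CREB3L1 (0.0614) and MED16 (0.0687). TWIST2 stood most alone, with 5 genes within 0.2. With 4 libraries these distances only describe the profiles.

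**Figure D3:**
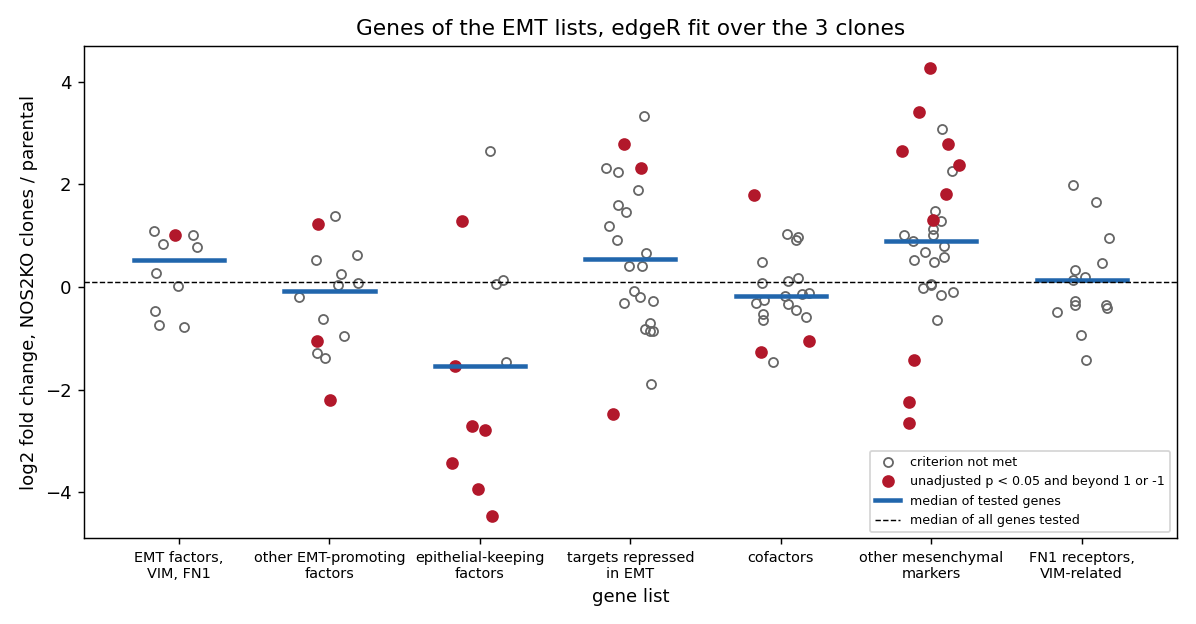
Log2 fold change of each tested gene in 7 lists (edgeR fit over the 3 clones against parental cells), 1 point per gene, with the list's median and, dashed, the median of all genes tested; filled points met the criterion. The epithelial-keeping factors have a median of -1.54 and the other mesenchymal markers one of 0.90. ST14 and ITGA8, with 0 counts in parental cells, are not drawn.

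Genes that work with or against the 10 were read from lists set by function, but chosen with earlier results of these data known. Their counts beside the shares of all genes thus only describe the lists. Of 16 factors that keep cells epithelial, 11 were tested. Here 6 met the criterion as lower in the clones and 1 as higher, beside 5.34% and 4.24% of all genes tested. KLF4, a zinc finger factor of differentiated epithelium, stood at 64.1 CPM in parental cells and 12.2, 11.1 and 6.30 CPM in the clones. Its log2 fold change was -2.70 (standard error 0.47, edgeR adjusted p 0.275). Its relative KLF5 stood at 60.6 CPM in parental cells against 25.4, 25.8 and 11.4 CPM. ESRP1, which directs epithelial splicing, stood at 5.65 CPM in parental cells against 0.0698, 0.807 and 0.223 CPM. All clones were below parental cells for these and for the ETS factors EHF (4.62 CPM against 0.208 ± 0.183, SD, n = 3) and ELF3 (2.78 against 0.258 ± 0.253) and for GRHL3 (1.06 against 0.152 ± 0.104). TP63, the basal epithelial factor p63, was the higher one, at 42.4 CPM in parental cells and 127, 108 and 76.5 CPM in the clones. FOXA1, a pioneer factor of luminal cells, was higher in all 3 clones too, at 2.69 CPM in parental cells and 4.62, 24.1 and 22.1 CPM in the clones, and its log2 fold change was 2.66 (standard error 0.96, edgeR adjusted p 0.465). It met the criterion with DESeq2, without the filter and without clone 1. GRHL2, OVOL1, OVOL2, ELF5 and MIR200CHG, the host gene of miR-200c, were not tested and reached at most 0.113 CPM. The list's median log2 fold change was -1.54, and -0.68 without the filter, with 14 genes tested. An adjusted p under 0.05 was reached by 0 of its genes with edgeR and 3 of 10 with DESeq2, beside 6.18% of all genes that DESeq2 gave one. As lower, 6 genes met the criterion without clone 1, beside 1608 of all 21908 genes tested. Without the library labelled clone 5 there were 5, beside 996 of 21504, and without clone 6 there were 4, beside 825 of 22165. GRHL3 was lost in both of the latter, ESRP1 without clone 6, and TP63 without the library labelled clone 5.

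Of 30 mesenchymal markers other than VIM and FN1, 29 were tested. Here 7 met the criterion as higher and 3 as lower, beside 4.24% and 5.34% of all genes tested. S100A4, a calcium-binding protein of motile cells, stood at 58.4 CPM in parental cells and 593, 592 and 683 CPM in the clones. The clones were 10.1 to 11.7 times the parental level, and the log2 fold change was 3.41 (standard error 0.31, edgeR adjusted p 0.259). The matrix protein SPARC stood at 624 CPM in parental cells against 1891, 4724 and 3150.4 CPM. LGALS1, which encodes a galectin, stood at 357 CPM against 1249.6 ± 187 (SD, n = 3), and FSTL1, a secreted glycoprotein, at 162 against 402 ± 86.5. The matricellular CCN2, the surface protease FAP and the collagen gene COL1A2 were the other higher ones, at 15.0, 0.620 and 0.111 CPM in parental cells and 104 ± 46.7, 11.9 ± 8.68 and 0.698 ± 0.256 CPM in the clones. Among the lower ones, the ligand WNT5A stood at 314 CPM against 117 ± 18.4, and the cadherin CDH11 at 1.39 against 0.222 ± 0.165. BGN, a matrix proteoglycan among the most abundant of the list, had a log2 fold change of 1.29. It did not meet the criterion in the main fit but met it as higher without clone 1. The list's median log2 fold change was 0.90, and 0 of its genes had an adjusted p under 0.05 with edgeR against 6 of 29 with DESeq2, where 6.18% of all genes did. With DESeq2, 9 of its genes met the criterion as higher and 3 as lower, beside 7.07% and 5.08% of all genes tested. Without clone 1 there were 11 higher and 2 lower, beside 1791 and 1608 of all 21908 genes tested.

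**Figure D4:**
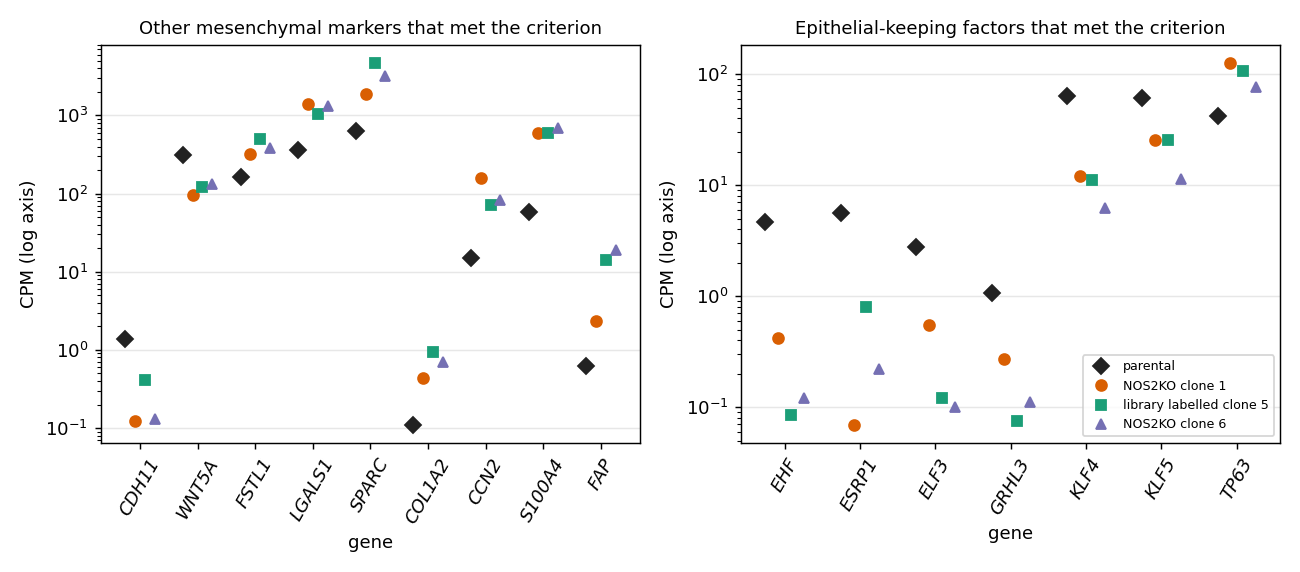
CPM in each library, on log axes, of the other mesenchymal markers (left) and the epithelial-keeping factors (right) that met the criterion and are named in the text; each point is 1 library. S100A4 lies at 58.4 in parental cells and between 592 and 683 in the clones, and KLF4 at 64.1 and between 6.30 and 12.2.

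Epithelial genes known to be repressed by SNAI, ZEB or TWIST formed a list of 30. Of 24 tested, 3 met the criterion as higher and 1 as lower, beside 4.24% and 5.34% of all genes tested. The list's median log2 fold change was 0.54. LLGL2, a polarity gene, stood at 4.87 CPM in parental cells and 12.8, 25.6 and 34.6 CPM in the clones. AP1M2, an epithelial sorting adaptor, stood at 0.785 CPM against 5.40 ± 2.42 (SD, n = 3). ST14, a membrane serine protease, had 0 counts in parental cells and 6, 16 and 5 counts in the clones. It was at least 2.54-fold higher by the mean of the clones over a floor of 3 counts in the parental library. Only through the library labelled clone 5 did ST14 pass the filter on low counts, so its call rests on that library. The tight junction gene OCLN was the lower one, at 8.21 CPM in parental cells against 0.837, 1.98 and 1.64 CPM. KRT18, KRT8 and JUP, keratins and plakoglobin and the most abundant per kb in parental cells, had log2 fold changes of 0.42, 1.20 and 0.40. They did not meet the criterion in the main fit, but KRT8 met it as higher with DESeq2, without the filter and without clone 1. CDH1 stayed at or under 0.413 CPM, and its log2 fold change was 1.89 (standard error 2.07, edgeR adjusted p 0.758). Without the library labelled clone 5, 2 genes of the list met the criterion as higher and 3 as lower (OCLN, DSP and CDH3). Of all 21504 genes tested there, 688 met it as higher and 996 as lower. The list's median was then 0.29, and with a minimum of 1 CPM it was 0.15. ST14 was not tested without the library labelled clone 5. It did not meet the criterion without clone 1, without clone 6, with DESeq2 or with the bias-adjusted method.

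Among 18 other EMT-promoting factors, 14 were tested, and FOXC1 and GATA6 met the criterion as lower and TEAD2 as higher. Of all genes tested, 5.34% met it as lower and 4.24% as higher. FOXC1, a forkhead factor of basal-like breast cancer, stood at 73.0 CPM in parental cells and 13.9, 20.7 and 12.9 CPM in the clones. GATA6, a zinc finger factor, stood at 63.0 CPM against 30.3 ± 8.51 (SD, n = 3), and TEAD2, a partner of YAP, at 43.5 against 102 ± 29.3. GATA6 was not called with upper quartile scaling, without the library labelled clone 5 or without clone 6, and TEAD2 was not called without clone 6, where only FOXC1 was. FOSL1, ETS1 and SOX4, the most abundant per kb in parental cells, had log2 fold changes of -1.29, 0.25 and 0.62. They did not meet the criterion in the main fit, but FOSL1 met it as lower without clone 1. Of 21 cofactors, all tested, ID3 met the criterion as higher and AJUBA and TCF12 as lower, beside those same shares of all genes tested. ID3, which holds E proteins away from TWIST, stood at 36.6 CPM in parental cells and 121, 150.5 and 111 CPM in the clones. TCF12, an E protein, stood at 152 CPM against 73.6 ± 14.5, and AJUBA, a corepressor of SNAI1, at 271 against 112 ± 34.9. LOXL2 and ID1, abundant cofactors too, had log2 fold changes of -0.11 and 0.98 and did not meet the criterion in the main fit. ID1 met it as higher with upper quartile scaling, with a minimum of 1 CPM, with DESeq2 and without clone 6. Neither of the cofactors called as lower was called without the library labelled clone 5, TCF12 was not without clone 1 or with upper quartile scaling, and AJUBA was not without clone 6. Of 15 tested fibronectin receptors and filaments related to vimentin, 0 met the criterion with edgeR, beside 9.58% of all genes tested. SDC4 had an unadjusted p under 0.05 with edgeR, beside 11.5% of all genes tested. ITGA8 met the criterion with DESeq2, and it had 0 counts in parental cells and 0, 142 and 5 counts in the clones. ITGA5, ITGB1 and SDC4, the most abundant of this list per kb, had log2 fold changes of -0.27, 0.34 and -0.94.

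Markers of other cell types were read in the same libraries. The 5 leukocyte markers summed to 17.6 CPM in parental cells and 53.1 to 109.9 CPM in the clones, with CD3E at or under 0.0750 CPM. PTPRC, which encodes CD45, made up most of the sum in the clones and met the criterion, at 4.45 CPM in parental cells and 68.4, 105 and 41.7 CPM in the clones. The 5 endothelial markers summed to 16.4 and 10.99 to 16.7 CPM, and the 5 luminal markers to 61.7 and 65.7 to 136 CPM. The 5 fibroblast markers summed to 1119 CPM in parental cells and 645, 5623 and 6410.2 CPM in the clones, mostly from COL3A1, with LUM and DCN at or under 16.1 CPM. The part of such cells in the results was not tested. Of the marker genes of these 4 types, PTPRC alone met the criterion with edgeR, as 9.58% of all genes tested did. DESeq2 called 1 leukocyte, 2 endothelial, 1 fibroblast and 1 luminal marker, all as higher, as it did 7.07% of all genes tested. In bulk RNA, fewer cells of a kind and less transcript per cell cannot be told apart.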

How the data were processed

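RNA from parental SUM159 cells (1 library) and NOS2KO clones (3 libraries) was sequenced after poly(A) enrichment, as paired ends. The authors deposited raw read counts per gene, without normalization. The submitters' processing notes name Trimmomatic 0.36, STAR 2.5.2b, featureCounts of Subread 1.5.2 and GRCh38; the annotation release and the strand setting are not given in the sources used here. Reads on overlapping antisense exons may thus be shared or dropped. Symbols came from GENCODE release 29 for 56898 of 57500 identifiers, coordinates from the files, and promoter sequences from RefSeq, which was read for ZEB1, ZEB2, TWIST2, PRRX1, VIM and FN1.

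The test used filterByExpr, TMM, estimateDisp, glmQLFit and glmQLFTest of edgeR (4.0.16, under R 4.3.3), with 2 residual degrees of freedom; DESeq2 (1.42.0) was an alternative. The p-values measure the spread between clones of 1 library each. CPM are relative to TMM-scaled library sizes, and levels between genes are per kb of exon. Intervals are Clopper-Pearson. Profiles used a prior of 0.5 CPM. Named genes were the 10 genes, NOS2, list genes that met the criterion or were among the 3 most abundant per kb of their list in parental cells, antisense genes on shared exons, and the 2 nearest profiles of each gene with at least 10 CPM; CDH1, CD44, ERBB2, FOXA1, DSP, CDH3, ITGA8 and other markers were named as checks or exceptions, after their values were seen. Of the list genes under this rule, 1 is not reported here. The genes and lists were chosen with earlier results of these data known. Scripts were tested on simulated data. Intervals came from scipy 1.17.1, tables from pandas 2.3.3 with numpy 2.4.6 (Python 3.11.15), and plots from matplotlib 3.10.9.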

Additional observations from a re-analysis of the deposited data

How the results depend on the processing

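Direction was kept for each of the 10 genes under every scaling, filter and test tried and with each clone left out, except TWIST2, whose log2 fold change was 0.02 and lay between -0.50 (without clone 1) and 0.32 with a clone left out. The number of the 10 genes meeting the criterion was 1, beside 2157 of all 22511 genes tested. It was 2 with upper quartile scaling (beside 2126 of 22511), with library size only (2144 of 22511) and with DESeq2's Wald test (2735 of 22511). With a minimum of 1 CPM it was 2 too, beside 1657 of 15301. It lay between 0 and 1 with a clone left out. It was 0 without the library labelled clone 5, beside 1684 of 21504, and 0 without clone 6, beside 1466 of 22165. Without clone 1 it was 1 (SNAI1 in place of TWIST1), beside 3399 of 21908. By an adjusted p under 0.05 it was 0, and the lowest adjusted p of the 10 genes over all alternatives was 0.0927 (TWIST1, DESeq2). Of all genes, 2157 met the criterion, between 1466 and 3399 with a clone left out, and 1 had an adjusted p under 0.05; the latter number was 1095 with DESeq2, 6 without the filter, 5 with the bias-adjusted quasi-likelihood method, which was added after the data were seen, and 0 in edgeR with any clone left out, when 4609, 1689 and 1467 genes had an unadjusted p under 0.05 without clone 1, the library labelled clone 5 and clone 6. Upper quartile scaling moved the median log2 fold change of all genes from 0.10 to 0.20. Chosen by Pearson correlation over the 4 libraries, 2 of the 16 nearest genes were shared. No paired analysis was possible because the parental group has 1 library. Leaving out a clone leaves 1 residual degree of freedom, so that lost calls there do not show a smaller effect. The median of the other EMT-promoting factors, -0.08, changed sign with upper quartile scaling (0.04), without the filter (0.18), with a minimum of 1 CPM (0.09), without clone 1 (0.15) and without clone 6 (0.06), and was -0.61 without the library labelled clone 5. That of the fibronectin receptors and related filaments, 0.14, was -0.04 without the filter and -0.40 without the library labelled clone 5. SNAI3 and PRRX1 are limited by their counts.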
